A study of Homo sapiens with 6 samples.

Results

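The genes described here are MYC, its network partners and the factors that build ribosomes in the nucleolus, 38 named genes, each kept where the mean normalized read count over the 6 libraries was 10 or more. All 38 were found and kept, of 34114 genes in the table, and MYCN came closest to the limit with a mean of 13.0. MYCN passed this limit only through its NOMO-1 libraries. They were sorted by role into the MYC network (6 genes), RNA polymerase I (3), small nucleolar ribonucleoprotein (snoRNP) proteins (6), small subunit assembly (5), large subunit assembly (9), abundant and regulatory nucleolar proteins (6) and MYC growth targets (3). The 4 groups from snoRNP proteins to nucleolar proteins are called the 26 nucleolar factors below. The cells were the human acute myeloid leukemia lines MOLM-14, NOMO-1 and SKM-1, of which MOLM-14 and NOMO-1 carry a KMT2A-MLLT3 gene fusion. Each line received a short hairpin RNA (shRNA) against NCAM1, a cell adhesion protein also called CD56, or a scrambled shRNA as control, and RNA was taken at 72 h. The labels give no hairpin sequence and leave unsaid if all 3 lines received 1 hairpin, and the SKM-1 knockdown column carries a slightly different hairpin name from those of MOLM-14 and NOMO-1, so line and hairpin cannot be told apart where SKM-1 differs. With a single library for each line and shRNA, 3 libraries came from NCAM1 knockdown and 3 from control cells. Each library stands for 1 culture of 1 established line, and nothing in the labels names separate cultures within a line. The p-values for knockdown over control therefore rest on how the shRNA difference varied between lines.

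MYC is a transcription factor that pairs with MAX and binds a short DNA motif, the E-box, near the start sites of many growth genes. MXD1, MXD3 and MXD4 also pair with MAX and repress the same kind of site, so the balance between MYC and the MXD proteins sets how such genes are driven. Ribosomal RNA is transcribed in the nucleolus by RNA polymerase I, modified by snoRNPs, cleaved, and packed with proteins into small and large subunits. Genes for these steps are among the best known targets of MYC, and in acute myeloid leukemia MYC is often abundant and sustains growth.

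The E-box CACGTG, which reads the same on either strand, was searched in RefSeq promoter windows of GRCh38.p14 that run from 250 bases before to 50 bases after each annotated start. Of the 38 genes, 31 had a window and 15 of those held the motif (48.4%), against 1340 of 10818 tested genes with a window (12.4%) and 8.77% of all genes with a window. Among the nucleolar factors 12 of 21 held it (57.1%). Counted by window, since some genes have several starts, 15 of 40 windows of these genes held it (37.5%), against 7.26% of 35116 windows in all. A match is a description of the letters and not a measured binding site. The 4 windows below belong to genes with large or steady differences described further on and show how the motif is placed. They are printed 5′ to 3′ on the strand of the gene, with the E-box in capitals. CDK4 (chr12:57752261-57752560, minus strand) held 3 copies, and ODC1 (chr2:10447963-10448262, minus strand) held 2, the 2 of the 31 genes with more than 1. FBL (chr19:39846330-39846629, minus strand) and DDX21 (chr10:68956397-68956696, plus strand) held 1 each.
CDK4: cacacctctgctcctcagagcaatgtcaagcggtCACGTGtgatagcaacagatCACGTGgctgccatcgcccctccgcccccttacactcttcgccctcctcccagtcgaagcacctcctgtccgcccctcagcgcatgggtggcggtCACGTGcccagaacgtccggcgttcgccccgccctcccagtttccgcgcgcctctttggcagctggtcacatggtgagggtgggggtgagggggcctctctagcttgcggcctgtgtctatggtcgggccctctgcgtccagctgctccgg
ODC1: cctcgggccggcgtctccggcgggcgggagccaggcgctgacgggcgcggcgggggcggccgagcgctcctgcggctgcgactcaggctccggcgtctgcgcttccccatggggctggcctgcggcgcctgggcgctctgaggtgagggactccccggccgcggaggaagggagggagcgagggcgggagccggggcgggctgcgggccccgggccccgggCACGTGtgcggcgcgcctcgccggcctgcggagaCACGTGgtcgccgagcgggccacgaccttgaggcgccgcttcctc
FBL: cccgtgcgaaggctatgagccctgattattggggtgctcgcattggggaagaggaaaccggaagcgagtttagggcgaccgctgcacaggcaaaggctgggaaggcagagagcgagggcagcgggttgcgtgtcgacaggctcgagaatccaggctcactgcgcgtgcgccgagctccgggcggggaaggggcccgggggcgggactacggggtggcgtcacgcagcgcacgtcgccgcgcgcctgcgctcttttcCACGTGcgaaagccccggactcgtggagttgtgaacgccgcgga
DDX21: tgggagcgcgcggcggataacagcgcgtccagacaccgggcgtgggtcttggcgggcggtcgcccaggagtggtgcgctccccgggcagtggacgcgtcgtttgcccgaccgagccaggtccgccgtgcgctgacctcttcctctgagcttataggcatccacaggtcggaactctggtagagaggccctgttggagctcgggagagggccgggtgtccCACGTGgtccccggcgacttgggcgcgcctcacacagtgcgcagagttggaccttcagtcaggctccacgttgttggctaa
Counted from the annotated start, the motifs began at -216, -196 and -101 in CDK4, at -29 and 5 in ODC1, at 6 in FBL and at -31 in DDX21. In most of the 15 genes the motif lay close to the start, from -64 in LYAR to 35 in NOP2, and MXD4 at -238 and CDK4 lay farther away.

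**Figure D1:**
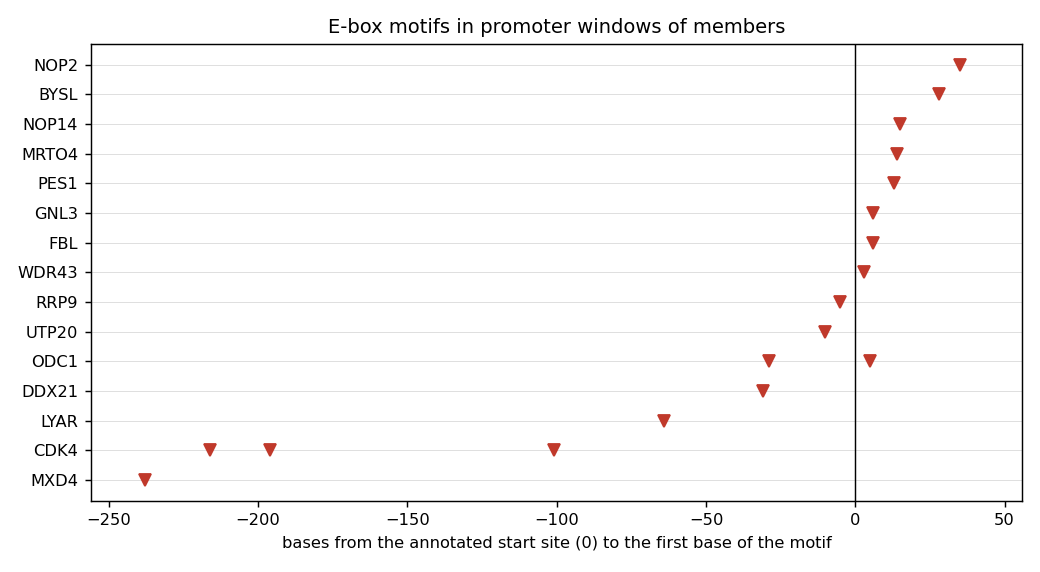
Position of each CACGTG motif (triangles) in the promoter windows of the 15 genes that held one, in bases from the annotated start site at 0 to the first base of the motif. CDK4 shows 3 motifs and ODC1 shows 2, and 13 of the 15 genes have a motif between -64 and 35.

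Depth was even, with 41916991 to 47688779 gene-assigned reads per library, and mitochondrial genes took 6.33% to 9.35% of reads. The shRNA target NCAM1 was lower in the knockdown library of each line, at 1896, 312 and 101 normalized counts in MOLM-14, NOMO-1 and SKM-1 knockdown libraries, against 6004, 1163 and 12537 in their controls. Of 10 myeloid markers 8 or 9 had over 100 normalized counts in each library, while the monocyte marker CD14 was at 3.05 to 27.4. Their sum was 52192, 73066 and 85602 in the knockdown libraries for MOLM-14, NOMO-1 and SKM-1, against 54305, 143773 and 783735 in the controls. Lymphoid markers summed to 4375 to 5269 in NOMO-1 and to 108 to 545 in the other lines, erythroid markers to 1.82 to 34.4, and epithelial and stromal markers to 385 to 3576. Members took 0.812%, 0.729% and 0.505% of reads in the knockdown libraries for MOLM-14, NOMO-1 and SKM-1, against 0.786%, 0.545% and 0.675% in the controls. In such bulk libraries fewer cells of a kind and less RNA per cell cannot be told apart.

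MYC was lower in the NCAM1 knockdown library of every line, by a modest amount in MOLM-14 and NOMO-1 and by more than 2-fold in SKM-1. In MOLM-14 it had 25149 normalized counts in the knockdown and 30769 in the control, a ratio of 0.817 (exact conditional 95% interval 0.803 to 0.832). In NOMO-1 it had 9599 in the knockdown and 12127 in the control, a ratio of 0.792 (0.771 to 0.812). In SKM-1 it had 7770 in the knockdown and 19955 in the control, a ratio of 0.389 (0.380 to 0.399). These intervals cover counting error only, since each ratio rests on 1 library per condition. Ranked among all genes of a library from the highest count, MYC stood at 212 in the knockdown and 160 in the control of MOLM-14, at 670 and 515 in NOMO-1, and at 1017 and 232 in SKM-1. The SKM-1 knockdown library was thus the lowest of the 6 for MYC, and the control libraries did not separate from the knockdown ones across lines, because the MOLM-14 knockdown was above the controls of NOMO-1 and SKM-1. Over the 3 lines the log2 ratio was -0.66 ± 0.60 (SD, n = 3 lines) with a standard error of 0.27, and it did not pass the test (limma blocked on cell line, adjusted by Benjamini-Hochberg, adjusted p = 0.779). The size of this mean rested on SKM-1, since it was -0.31 without that line, against -0.85 without MOLM-14 and -0.83 without NOMO-1. The edgeR quasi-likelihood test gave an adjusted p = 0.824 and DESeq2 an adjusted p = 0.732. MYC was the only member below its control in all 3 lines, a pattern held by 15.9% of the 19575 genes tested.

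The partners of MYC differed from line to line. MAX, the shared partner, had 2455 normalized counts in the NOMO-1 knockdown and 3831 in its control, a ratio of 0.641 (0.610 to 0.673). In SKM-1 MAX had 1228 in the knockdown and 1513 in the control, and in MOLM-14 it had 1107 in the knockdown and 1082 in the control. MXD1, a repressor known to be induced as myeloid cells mature, lay on opposite sides of its control in NOMO-1 and SKM-1. It had 1402 normalized counts in the NOMO-1 knockdown against 2720 in its control (log2 ratio -0.96), 1729 in the SKM-1 knockdown against 875 in its control (0.98), and 2296 in the MOLM-14 knockdown against 2342 in its control (-0.03). SKM-1 thus had the lowest MYC ratio together with the highest MXD1 ratio of the 3 lines. MXD4, another repressor of the family, had 1376 in the SKM-1 knockdown and 2189 in its control, a ratio of 0.629 (0.588 to 0.672), while its log2 ratio was 0.29 in MOLM-14 and -0.06 in NOMO-1. MXD3, a family member known in mouse from proliferating progenitors, was slightly above its control in every line, at log2 ratios of 0.21, 0.04 and 0.11 in MOLM-14, NOMO-1 and SKM-1. MYCN, the MYC relative of neural tissue, had 48 reads in the NOMO-1 knockdown and 35 in its control, a ratio of 1.32 (0.839 to 2.11). It had 1 read in the SKM-1 knockdown and 0 in the other 3 libraries, so no ratio is given there. Per kilobase of exon, the count of MYC per count of MAX was 33.5 in the knockdown and 42.0 in the control of MOLM-14, 5.77 and 4.67 in NOMO-1, and 9.34 and 19.5 in SKM-1. In NOMO-1 this ratio was higher in the knockdown, because MAX was further below its control than MYC was.

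**Figure D2:**
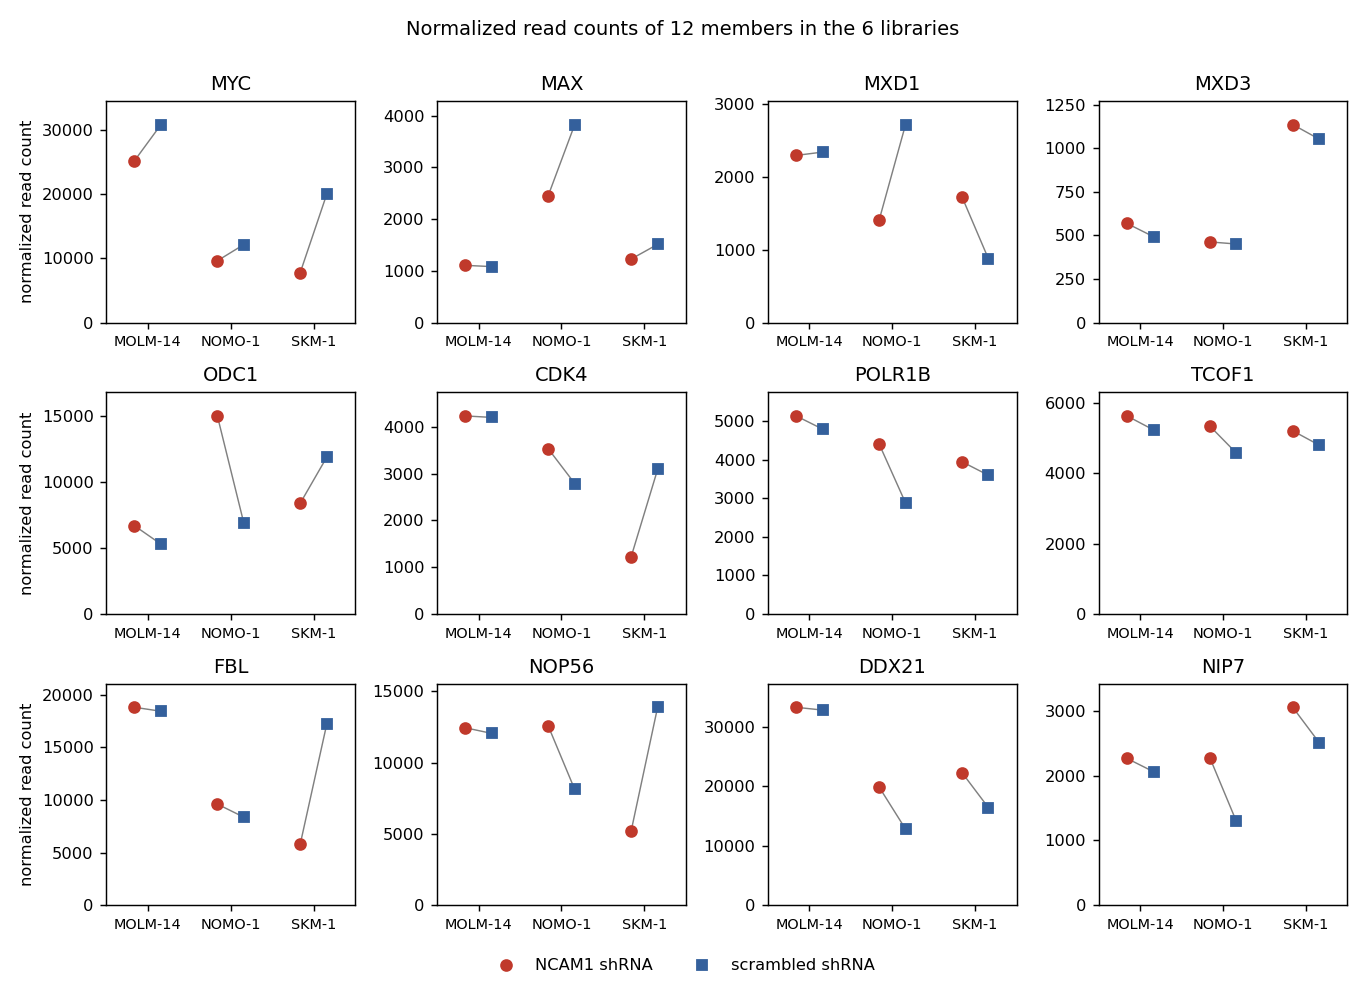
Normalized read counts (vertical axes, from 0) of 12 members in the NCAM1 shRNA library (circles) and the scrambled shRNA library (squares) of each cell line, with a line joining each pair. MYC is lower in the knockdown of all 3 lines, at 7770 against 19955 in SKM-1, while FBL and NOP56 are below their controls in SKM-1 and above them in the other lines and ODC1 stands at 15006 against 6861 in NOMO-1.

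The 3 genes of RNA polymerase I transcription were near their controls in MOLM-14 and above them in NOMO-1, and in SKM-1 UBTF was below its control. POLR1B, the second largest polymerase subunit, had 5142 normalized counts in the MOLM-14 knockdown and 4799 in the control, 4420 in the NOMO-1 knockdown and 2882 in the control, and 3953 in the SKM-1 knockdown and 3601 in the control. Its NOMO-1 ratio was 1.53 (1.47 to 1.61), the highest of the 3 genes in any line. TCOF1, the nucleolar protein treacle that assists ribosomal RNA transcription, had 5626 in the knockdown and 5229 in the control of MOLM-14, 5337 and 4569 in NOMO-1, and 5203 and 4795 in SKM-1. Its ratios were alike across lines, at 1.08, 1.17 and 1.09. UBTF, the factor that opens ribosomal DNA for the polymerase, was at 4406 in the SKM-1 knockdown against 6327 in its control, a ratio of 0.696 (0.671 to 0.723), and at log2 ratios of 0.03 in MOLM-14 and 0.12 in NOMO-1. POLR1B and TCOF1 were above their controls in all 3 lines, and UBTF in 2 of 3. Over lines the log2 ratios were 0.28 ± 0.29 for POLR1B, 0.15 ± 0.07 for TCOF1 and -0.12 ± 0.35 for UBTF (SD, n = 3 lines), and limma gave adjusted p-values of 0.779, 0.803 and 0.872.

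The 26 nucleolar factors behaved differently in each line. In MOLM-14 they stayed close to their controls, with a median log2 ratio of 0.01, a range of -0.17 to 0.26, and 15 higher and 11 lower, against 48.4% and 49.4% of all tested genes. None was past 1.5-fold, where 8.04% of all tested genes were past 1.5-fold higher and 9.15% past it lower. In NOMO-1 the median was 0.44, 25 of 26 (96.2%) were above their control, against 49.0% of all tested genes, and 10 (38.5%) were past 1.5-fold higher, against 12.1% of tested genes. None was past 1.5-fold lower in NOMO-1, against 16.8% of tested genes. In SKM-1 the median was -0.39, 20 of 26 (76.9%) were below their control and 6 above it, against 50.6% and 48.0% of tested genes, and 9 (34.6%) were past 1.5-fold lower, against 27.4% of tested genes, a share not far above that background. 1 factor was past 1.5-fold higher in SKM-1 (RRP12, 3.85%), against 25.3% of tested genes. Among the 9830 genes with a mean of 500 or more, which are closer to these factors in level, the shares past 1.5-fold were 2.13% higher and 3.76% lower in MOLM-14, 6.6% higher and 11.9% lower in NOMO-1, and 21.0% higher and 23.7% lower in SKM-1. Over all 38 genes, 12 were past 1.5-fold higher and 2 past it lower in NOMO-1 (MAX and MXD1), and 3 were past it higher and 13 past it lower in SKM-1, 1 of those 3 being MYCN with its single read.

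Of the 26 factors 20 (76.9%) were above their control in NOMO-1 and below it in SKM-1, a pattern held by 23.1% of all tested genes. With 25 above control in NOMO-1 and 20 below it in SKM-1, at least 19 had to show this pattern, so the count adds little to those of the single lines. NOP14, WDR43, NOP2, NIP7 and DDX21 were above their control in both lines, and RRP12 was the only one below it in NOMO-1 and above it in SKM-1. The summed myeloid markers were lower in the knockdown of both lines. The sum was 73066 in the NOMO-1 knockdown against 143773 in its control, and 85602 in the SKM-1 knockdown against 783735 in its control. Not every marker went this way, since CD14, the lowest of them, was above its control in both lines, at low counts. Such a sum is weighted to the most abundant markers, and the directions of the other markers were not compared. The nucleolar factors lay mostly above control in NOMO-1 and below it in SKM-1. The part of these marker differences in the nucleolar values was not tested.

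**Figure D3:**
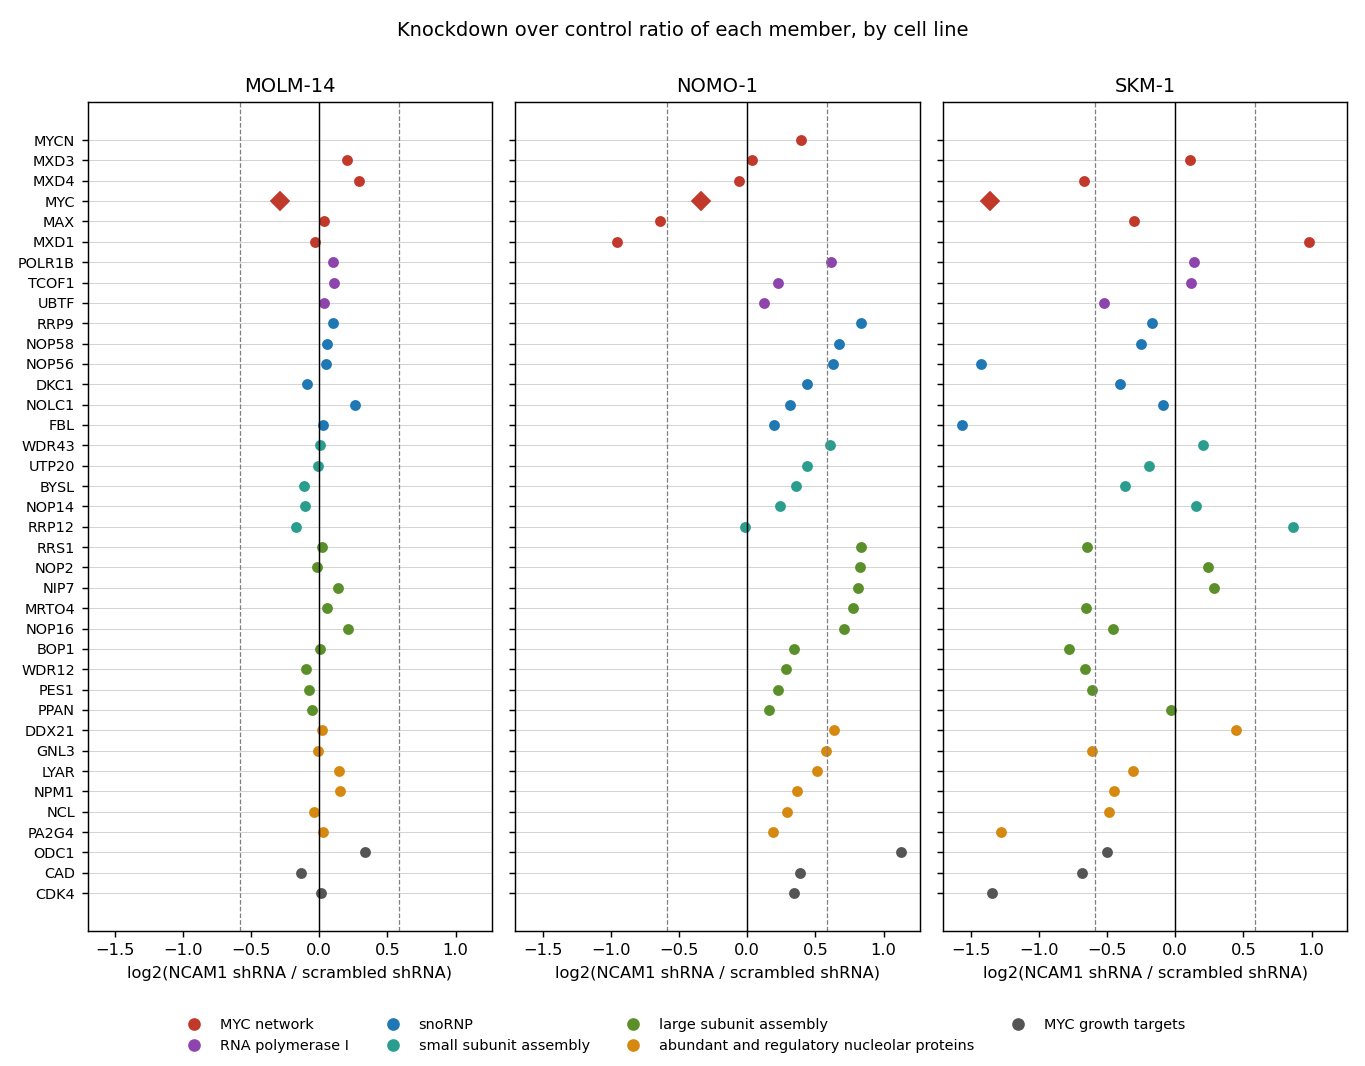
Log2 ratio of NCAM1 shRNA over scrambled shRNA for each of the 38 genes (rows, coloured by role) in the 3 cell lines (panels), with dashed lines at 1.5-fold and MYC as a diamond. MYCN is drawn only in NOMO-1, since it had at most 1 read in the other lines. In NOMO-1, 25 of 26 nucleolar factors lie right of 0, and in SKM-1, 20 of 26 lie left of it.

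Among the snoRNP proteins, FBL and NOP56 stood out in SKM-1. FBL, the methyltransferase fibrillarin, had 5817 normalized counts in the SKM-1 knockdown and 17207 in its control, a ratio of 0.338 (0.328 to 0.348) and the lowest log2 ratio of all 38 genes in that line (-1.56). Its counts were 18798 in the knockdown and 18423 in the control of MOLM-14, and 9606 and 8364 in NOMO-1. NOP56, a core protein of the same particle, had 5186 in the SKM-1 knockdown and 13875 in its control, but 12572 in the NOMO-1 knockdown and 8116 in its control. These are the 2 nucleolar factors whose SKM-1 ratio was below that of MYC. NOP58, the partner of NOP56 in that particle, did not share its SKM-1 ratio, with 5679 in the knockdown and 6764 in the control there (log2 ratio -0.25), and 8888 in the NOMO-1 knockdown against 5585 in its control (0.67). DKC1, the pseudouridine synthase dyskerin, had 7630 in the SKM-1 knockdown and 10088 in its control, 9575 in the NOMO-1 knockdown and 7065 in its control, and 8943 in the MOLM-14 knockdown and 9532 in its control. NOLC1, a chaperone of snoRNPs, had the highest MOLM-14 log2 ratio of the 26 factors (0.26), with 16392 in the knockdown and 13672 in the control. RRP9, a U3 snoRNP protein, had one of the higher NOMO-1 log2 ratios (0.83), with 1572 in the knockdown and 882 in the control.

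The small subunit assembly factors were the only one of the 4 nucleolar groups with a median above 0 in SKM-1. Their median log2 ratio there was 0.15, and 3 of 5 were above their control, against 48.0% of tested genes. The 35 further small subunit genes listed below did not share this, with a median of -0.07 in SKM-1 and 15 higher and 20 lower. RRP12, which works in processing and export of pre-ribosomes, had 7111 normalized counts in the SKM-1 knockdown and 3908 in its control, a ratio of 1.82 (1.75 to 1.89). It was the only nucleolar factor below its control in NOMO-1, and there by a ratio of 0.988 (0.937 to 1.04), whose interval includes 1. In MOLM-14 RRP12 had the lowest log2 ratio of the 26 factors (-0.17). WDR43, a subunit of the early small subunit complex, had 6967 in the NOMO-1 knockdown and 4583 in its control, 4792 in the SKM-1 knockdown and 4166 in its control, and 7297 in the MOLM-14 knockdown and 7259 in its control. UTP20, NOP14 and BYSL, also small subunit factors, had log2 ratios of 0.24 to 0.44 in NOMO-1 and -0.37 to 0.15 in SKM-1.

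Of the 4 nucleolar groups, the large subunit assembly factors lay farthest apart between NOMO-1 and SKM-1, with group medians of 0.71 and -0.61, against 0.00 in MOLM-14. The further lists described below did not single out this class. Their NOMO-1 and SKM-1 medians were 0.33 and -0.29 for large subunit, 0.15 and -0.50 for snoRNP and 0.40 and -0.07 for small subunit genes. In NOMO-1 all 9 large subunit members were above their control, against 49.0% of tested genes, and 5 were past 1.5-fold higher, against 12.1%. RRS1, known in yeast for loading the 5S ribosomal RNA particle, had 1685 normalized counts in the NOMO-1 knockdown and 943 in its control, and 1053 in the SKM-1 knockdown and 1651 in its control. MRTO4, a factor of the same maturing subunit, had 3784 in the NOMO-1 knockdown and 2211 in its control, and 2254 in the SKM-1 knockdown and 3549 in its control. PES1, BOP1 and WDR12 form the PeBoW complex, and their log2 ratios lay together in each line, at -0.07, 0.00 and -0.10 in MOLM-14, at 0.22, 0.34 and 0.29 in NOMO-1, and at -0.61, -0.77 and -0.66 in SKM-1. NOP2, a ribosomal RNA methyltransferase, had 2373 in the NOMO-1 knockdown and 1338 in its control, and 2693 in the SKM-1 knockdown and 2279 in its control. NIP7, known in yeast for large subunit maturation, had 2264 in the knockdown and 2059 in the control of MOLM-14, 2274 and 1293 in NOMO-1, and 3052 and 2506 in SKM-1. It had the highest mean log2 ratio of the members above their control in all lines, 0.41 ± 0.36 (SD, n = 3 lines; limma adjusted p = 0.779). NOP16 had 1323 in the NOMO-1 knockdown and 808 in its control, and PPAN, the factor with the lowest mean count, had 86.7 and 77.5 there.

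Of the abundant and regulatory nucleolar proteins, NPM1, NCL and DDX21 made up 54.8%, 55.0% and 54.7% of all counts of the 26 factors in the knockdown libraries for MOLM-14, NOMO-1 and SKM-1, against 54.6%, 56.5% and 51.6% in the controls. NPM1, the chaperone nucleophosmin, had 60871 normalized counts in the knockdown and 54709 in the control of MOLM-14, 43643 and 33829 in NOMO-1, and 26595 and 36272 in SKM-1. NCL, nucleolin, had 72139 in the knockdown and 74157 in the control of MOLM-14, 71276 and 58367 in NOMO-1, and 49191 and 68973 in SKM-1. Both were above their control in NOMO-1 and below it in SKM-1, as most factors were. DDX21, an RNA helicase that acts in both polymerase I transcription and ribosomal RNA processing, was above its control in both of those lines, with 19879 in the NOMO-1 knockdown and 12791 in its control, and 22290 in the SKM-1 knockdown and 16390 in its control. Its log2 ratio over lines was 0.37 ± 0.31 (SD, n = 3 lines; limma adjusted p = 0.779). PA2G4, a growth regulator of the nucleolus, had 2327 in the SKM-1 knockdown and 5648 in its control, a ratio of 0.412 (0.393 to 0.432). GNL3 and LYAR, also nucleolar, had log2 ratios of 0.58 and 0.51 in NOMO-1 and -0.61 and -0.31 in SKM-1. NPM1 has 45 pseudogenes by name in the GENCODE annotation, and 7 other members have 1 to 5, so reads shared with such copies make these counts less certain.

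The growth targets held the highest NOMO-1 ratio of the 38 genes. ODC1, the first enzyme of polyamine synthesis, had 15006 normalized counts in the NOMO-1 knockdown and 6861 in its control, a ratio of 2.19 (2.13 to 2.25). It had 6683 in the MOLM-14 knockdown and 5285 in its control, and 8390 in the SKM-1 knockdown and 11880 in its control. CDK4, a kinase that drives entry into S phase, had 1216 in the SKM-1 knockdown and 3088 in its control, a ratio of 0.394 (0.369 to 0.420), close to that of MYC in the same line. Its NOMO-1 counts were 3531 in the knockdown and 2787 in the control, and its MOLM-14 counts 4232 and 4200. CAD, the enzyme that starts pyrimidine synthesis, had 5241 in the SKM-1 knockdown and 8402 in its control, and 6712 in the NOMO-1 knockdown and 5140 in its control. The 3 genes were therefore above their control in NOMO-1 and below it in SKM-1. CDK4 shares exonic bases with TSPAN31 on the opposite strand, and the library kit does not mark strand, so reads in that overlap cannot be assigned.

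Set beside its classical targets, MYC was lower relative to control than the median nucleolar factor in every line. The log2 ratio of MYC minus the nucleolar median was -0.30 in MOLM-14 and -0.78 in NOMO-1, and reached -0.97 in SKM-1, a mean of -0.68 ± 0.34 (SD, n = 3 lines). None of the 26 factors had a ratio below that of MYC in MOLM-14 or NOMO-1, and 2 did in SKM-1, FBL and NOP56. Among all 38 genes MYC ranked 1, 3 and 3 from the lowest ratio in MOLM-14, NOMO-1 and SKM-1. The genes below it in NOMO-1 were MXD1 and MAX. Against the RNA polymerase I median the difference was -0.39 in MOLM-14 and -0.56 in NOMO-1, and reached -1.48 in SKM-1, a mean of -0.81 ± 0.585 (SD, n = 3 lines). The nucleolar median was 0.44 in NOMO-1, while MYC was at -0.34 there, so MYC and the nucleolar factors stood on opposite sides of their controls. In SKM-1 both were below them, at -1.36 for MYC and -0.39 for the median factor. These differences describe 3 pairs of libraries and carry no test.

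**Figure D4:**
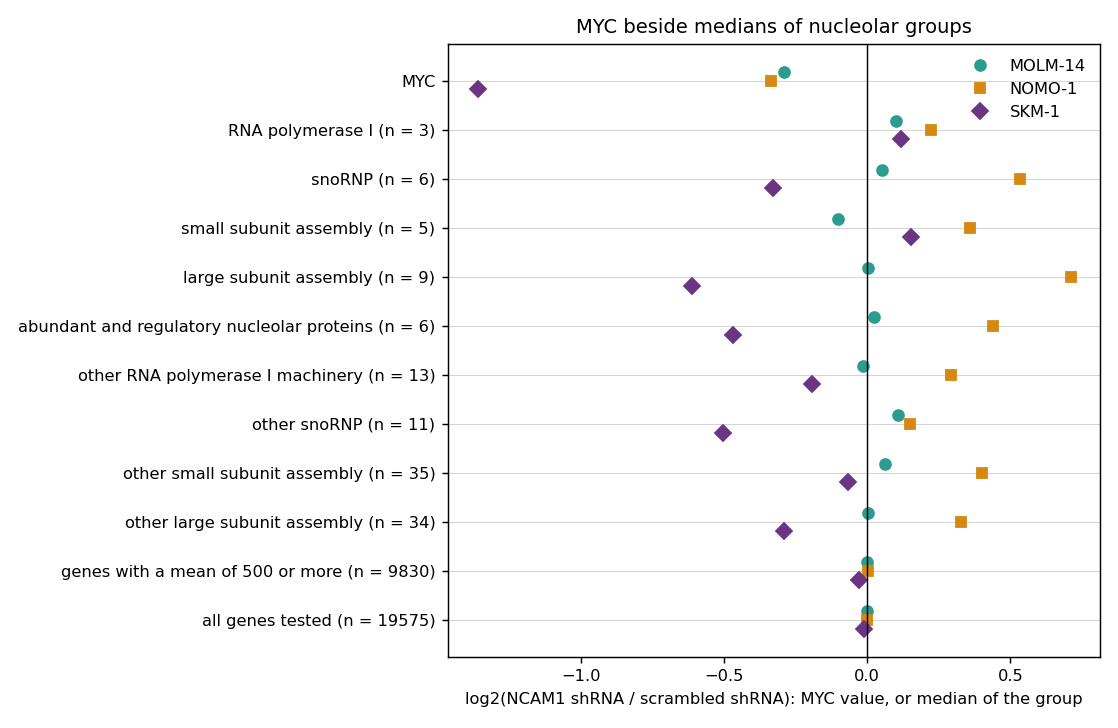
Log2 ratio of NCAM1 shRNA over scrambled shRNA for MYC and the median log2 ratio of each group of genes (rows, n in brackets), by cell line (symbols). MYC is left of the median of each nucleolar group in all 3 lines, and the NOMO-1 medians of the nucleolar groups lie right of 0 while most SKM-1 medians lie left of it.

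Over the 3 lines none of the 38 genes passed the limma test for NCAM1 knockdown over control, with adjusted p-values of 0.779 to 1.00. Of the 19575 genes tested 0 passed it as well (0.0%). At an unadjusted p under 0.05, 0 members passed by limma and by edgeR and 1, MYC, by DESeq2, against 877 tested genes (4.48%) by limma, 863 (4.41%) by edgeR and 1102 (5.63%) by DESeq2. With adjustment edgeR called 0 genes and DESeq2 called 43 (0.22%), none of them a member. Members above their control in all 3 lines numbered 6 of 38, MXD3, POLR1B, TCOF1, WDR43, NIP7 and DDX21, against 14.6% of tested genes, and 31 had mixed directions. The median over nucleolar factors of their mean log2 ratio was 0.06. Leaving out SKM-1 gave 0.27 while leaving out NOMO-1 gave -0.13, so the sign of this median depended on the lines used. The nucleolar medians of the 3 lines had a mean of 0.02 with an SD of 0.41.

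Other genes of the same pathways were given by lists. Of 136 listed genes 134 were tested and 0 passed the limma test with adjustment. Of 80 further snoRNP, small subunit and large subunit genes, 74 (92.5%) were above their control in NOMO-1, against 49.0% of tested genes. Their median log2 ratio there was 0.38. In SKM-1 49 (61.2%) were below their control, against 50.6% of tested genes, with a median of -0.20. The MOLM-14 median was 0.03. The number above their control in all 3 lines was 18 of these 80, against 14.6% of tested genes, and 3 were below it in all, against 15.9%. NOC3L, a large subunit factor, had the smallest p of these lists among genes with a higher mean, with 3927 normalized counts in the knockdown and 3130 in the control of MOLM-14, 3124 and 1840 in NOMO-1, and 3058 and 2108 in SKM-1 (limma adjusted p = 0.779). RUVBL2, an ATPase that helps assemble snoRNPs, had 2110 in the SKM-1 knockdown and 8635 in its control. Its ratio of 0.244 was below those of FBL (0.338) and NOP56 (0.374) in that line. Of 13 further RNA polymerase I genes 11 were above their control in NOMO-1 and 8 below it in SKM-1, against 49.0% and 50.6% of tested genes. Their medians were 0.29 and -0.19. POLR3G, a subunit of RNA polymerase III, was above its control in all 3 lines, by 0.60 ± 0.25 on the log2 scale (SD, n = 3 lines; limma adjusted p = 0.779).

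Among the other MYC network genes, 6 of 7 were below their control in each of MOLM-14 and NOMO-1 and 5 of 7 in SKM-1. MXI1, a repressor of the MXD family, had 4965 normalized counts in the knockdown and 6600 in the control of MOLM-14, 1174 and 5365 in NOMO-1, and 1279 and 3981 in SKM-1 (log2 ratio -1.41 ± 0.91, SD, n = 3 lines; limma adjusted p = 0.779). TFRC, the transferrin receptor and a known MYC target, had 13960 and 21569 in the knockdown and control of MOLM-14, 19039 and 35336 in those of NOMO-1, and 9659 and 37727 in those of SKM-1 (limma adjusted p = 0.779). AMD1, the other decarboxylase of the polyamine pathway, was above its control in every line, by 0.48 ± 0.32 on the log2 scale (SD, n = 3 lines; limma adjusted p = 0.779). CDKN1A, an inhibitor of the cell cycle that MYC is known to repress, had 3796 in the SKM-1 knockdown and 1038 in its control, but 1158 in the NOMO-1 knockdown and 1606 in its control. NDRG1, likewise known to be repressed by MYC, was below its control in all 3 lines, with 1833 in the SKM-1 knockdown and 24674 in its control (limma adjusted p = 0.779).

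The other genes that each list put forward by the size of their p had limma adjusted p-values of 0.779 to 0.929, and their mean log2 ratios over the 3 lines were as follows. Among snoRNP genes, ZNHIT6 was at 0.26 and NHP2, a dyskerin partner, at 0.25, while RUVBL1, the partner of RUVBL2, was at -0.44 with -1.51 in SKM-1. Among small subunit genes, MPHOSPH10 and the kinase RIOK2 were above control in all lines, with means of 0.52 and 0.46, the nuclease NOB1 was below it in all lines, at -0.31, and RIOK1 was at -0.14. Among large subunit genes, MKI67IP was above control in all lines, at 0.32, TEX10 below it in all, at -0.24, and RSL24D1 at -0.41 with -1.44 in SKM-1. The 5 assembly genes here with a mean below 0 had their lowest value in SKM-1.

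For RNA polymerase I, TAF1D was above control in all lines, with a mean of 0.39, the largest subunit POLR1A was at 0.34, ZNRD1 at -0.30 and TTF1 at -0.22. For RNA polymerase III, POLR3B was above control in all lines, at 0.30, while its repressor MAF1 and the initiation factor BRF1 were below it in all, at -0.29 and -0.21. In the MYC network, MYCL, a relative of MYC, was below control in all lines with a mean of -1.17, while MLX was at 0.18 and MNT at 0.06. Of the growth targets, the mitochondrial chaperonin gene HSPE1 was above control in all lines, at 0.60, and IMPDH2, an enzyme of guanine nucleotide synthesis, below it in all, at -0.42. Of the genes that MYC is known to lower, GADD45A had a mean of 0.32, with 2.03 in SKM-1 but -0.26 for MOLM-14 and -0.81 for NOMO-1. The cell cycle inhibitor CDKN1B had a mean of -0.22.

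The lines themselves were compared with the 2 libraries of each, in a limma fit with the shRNA as a covariate. The knockdown and control libraries of a line served as its 2 samples. The error behind these p-values is thus how unlike the shRNA differences of the lines were, and not a spread between cultures of a line. The contrasts share libraries, so they are not independent of each other. In MOLM-14 over NOMO-1, 4 members were higher and 2 lower, against 5.42% of tested genes higher and 8.04% lower. UTP20, a large scaffold protein of the small subunit, was 1.72 ± 0.245 higher on the log2 scale (SE, adjusted p = 0.0178 by limma), with 6140 and 6171 normalized counts in the MOLM-14 knockdown and control and 2169 and 1598 in those of NOMO-1. PPAN was 2.13 ± 0.31 higher (SE, adjusted p = 0.0195 by limma), with 355 and 369 in the MOLM-14 knockdown and control and 86.7 and 77.5 in those of NOMO-1. NOP2 and DDX21 were higher by 1.29 and 1.05 (limma adjusted p = 0.0476 and 0.0463), but edgeR gave both an adjusted p above the threshold (0.0569 and 0.0642). MAX was lower, at -1.49 on the log2 scale (limma adjusted p = 0.0292). MYCN had 0 reads in both MOLM-14 libraries against 48 and 35 in NOMO-1. That is at least 23.8-fold lower in MOLM-14 with a floor of 3 reads over the pair. MYCN counts among the 2 lower members, but it passed the filter on the mean only through its NOMO-1 libraries. Its limma p is therefore no support for the difference and is left out. MYC was higher in MOLM-14 by 1.37 ± 0.33 on the log2 scale (SE), which did not pass (limma adjusted p = 0.0602). All 26 nucleolar factors had a higher mean in MOLM-14, with a median log2 ratio of 0.56, against 49.3% of tested genes higher and a median of -0.01 over all of them. With total-count scaling, which moved the median of all genes to -0.14, 24 of 26 were higher, and with quantile normalization 23.

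In SKM-1 over MOLM-14, 0 members were higher and 1 lower, against 8.21% of tested genes higher and 8.06% lower. The member was UTP20, at -1.92 ± 0.245 (SE, limma adjusted p = 0.0124), with 1526 and 1738 normalized counts in the SKM-1 knockdown and control. MYC was at -1.16 ± 0.33 (SE, limma adjusted p = 0.0776), and 25 of 26 nucleolar factors were on the lower side, against 48.9% of tested genes, NIP7 being the exception. In SKM-1 over NOMO-1, 1 member was higher and 2 lower, against 6.04% of tested genes higher and 7.87% lower. MXD3 was higher by 1.26 ± 0.24 (SE, limma adjusted p = 0.0351), with 1137 and 1053 normalized counts in the SKM-1 knockdown and control and 463 and 451 in those of NOMO-1. MAX was lower, at -1.17 (limma adjusted p = 0.0494). By edgeR the adjusted p was 0.0514 for MAX and 0.0555 for MXD3, so neither passed there. In the same contrast MYCN had 1 read in the SKM-1 pair against 83 in the NOMO-1 pair, a ratio of 0.0125 (exact 95% interval 0.000313 to 0.0717). Its limma call as lower is no support here either, since MYCN was tested only because of its NOMO-1 libraries. MYC differed by 0.21 ± 0.33 (SE, limma adjusted p = 0.718), and the nucleolar factors split into 14 higher and 12 lower, against 50.3% of tested genes higher. MXD3 overlaps RAB24 and PRELID1 in exonic bases and PPAN overlaps a read-through transcript with P2RY11. NOP2, called in MOLM-14 over NOMO-1, shares 2550 of its 4687 exonic bases with AC006064.6 on the same strand. Several other members also share exonic bases with neighbours. Reads in such overlaps may be counted for the wrong gene or left out, which makes these counts less certain.

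Leaving out single libraries changed which members were called, and none of these calls held in every such fit. The number of members called moved with the number called among all tested genes. In SKM-1 over MOLM-14 the log2 ratio of UTP20 ran from -2.12 to -1.72 in these fits. In SKM-1 over NOMO-1 that of MAX ran from -1.42 to -0.92 and that of MXD3 from 1.20 to 1.32. In MOLM-14 over NOMO-1 UTP20 ran from 1.46 to 1.99, PPAN from 2.03 to 2.23 and NOP2 from 0.93 to 1.65. DDX21 ran from 0.79 to 1.31 and MAX from -1.74 to -1.23 in that contrast. These fits leave 1 sample in a line and assume that it varies like the others.

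**Figure D5:**
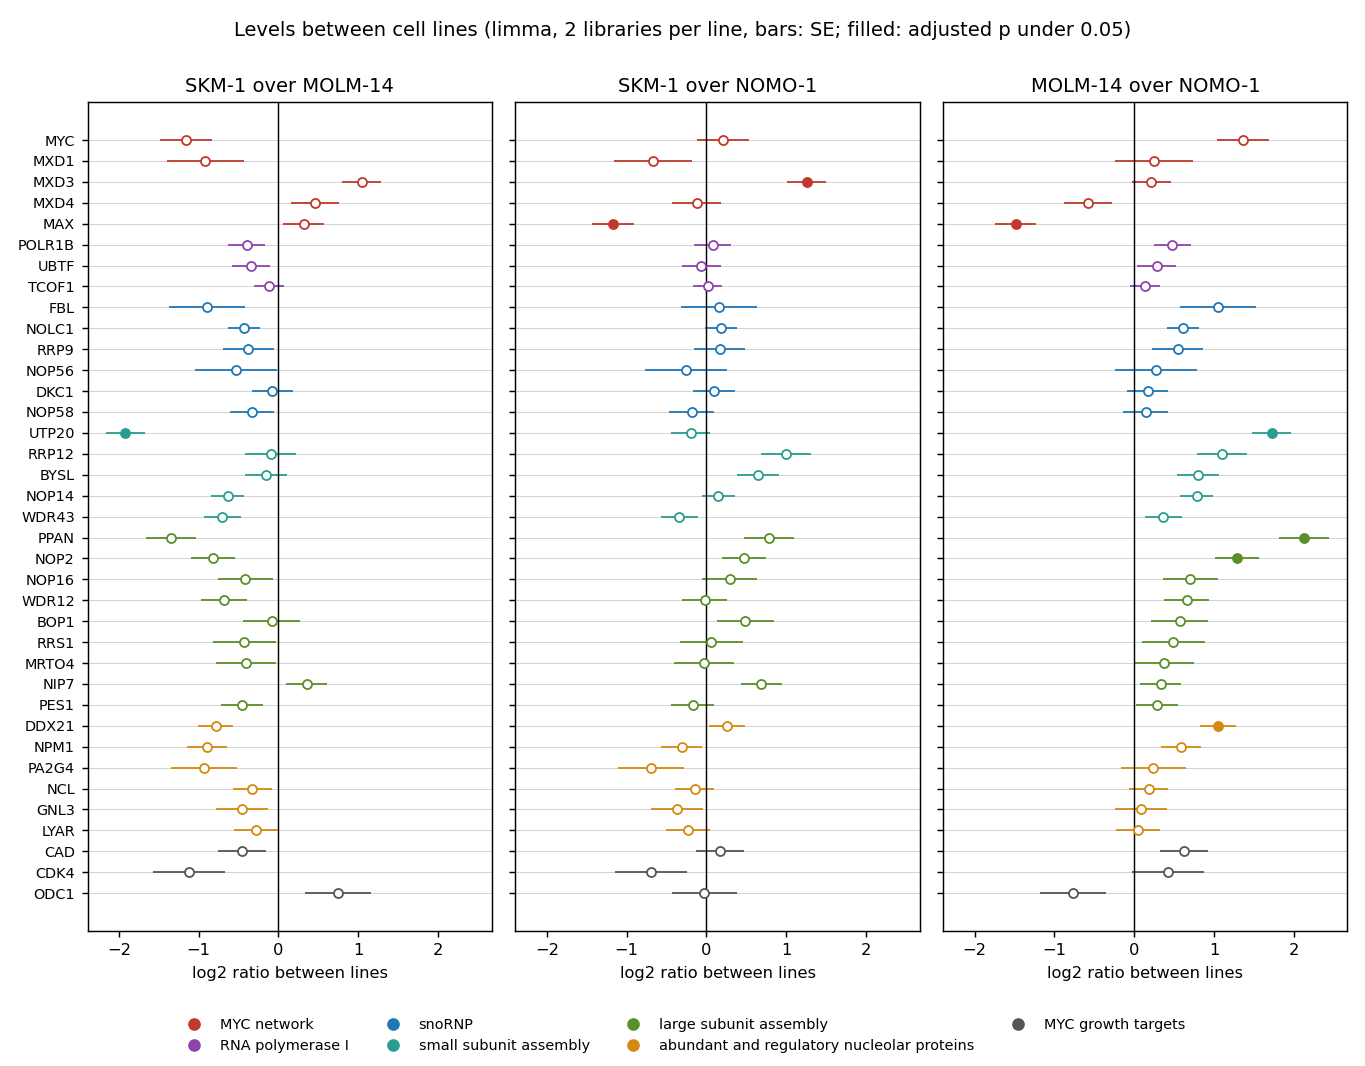
Log2 ratio between cell lines of 37 members (rows, MYCN left out because of its counts of 0) in 3 contrasts (panels), as limma estimates with SE bars from 2 libraries per line and filled symbols at an adjusted p under 0.05. In MOLM-14 over NOMO-1 the nucleolar factors all lie right of 0, with UTP20, PPAN, NOP2 and DDX21 filled.

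Levels were compared between genes per kilobase of merged exon, known for 37 of the 38 genes. NPM1 and NCL were the 2 highest of these genes in each of the 6 libraries, at 6950 to 15900 normalized counts per kilobase for NPM1 and 7100 to 10700 for NCL. MYC itself had a level like that of abundant nucleolar proteins, at 8380, 3200 and 2590 normalized counts per kilobase in the knockdown libraries for MOLM-14, NOMO-1 and SKM-1, against 10300, 4040 and 6650 in the controls. FBL, at 8650, 4420 and 2680 in the knockdown libraries against 8480, 3850 and 7920 in the controls, was close to it. MAX was far lower, at 250, 554 and 277 in the knockdown libraries and 244, 865 and 342 in the controls, and MXD3 lower still at 87.4 to 221 over the 6 libraries. The polymerase I genes lay between 399 and 969 normalized counts per kilobase. Ranges between genes of this kind have no replicate within a line, and depend on the annotation of exons.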

How the data were processed

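TruSeq RNA v2 libraries of 3 cell lines under 2 shRNAs were sequenced with paired 100 bp reads, per the labels. The deposited signal values are read counts per gene after division by a size factor for each library, per the file headers and values. The deposited log2 values are a transformed form by the authors whose method has no name in the sources. Tools named in the submitters' processing notes are STAR, HTSeq 0.6.1p1, DESeq2 1.12.4 and bcl2fastq 1.8.4, with build hg19. Neither the strand setting nor the annotation used for counting is given in the sources used here. Whole reads were recovered for 100% of values at a tolerance of 0.001.

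limma 3.58.1 (R 4.3.3) was fitted, two-sided and with an eBayes trend, to log2(normalized count + 1) of 19575 genes with a mean of 10 or more, blocked on cell line, with p-values adjusted by Benjamini-Hochberg and called under 0.05. The pseudocount of 1 understates ratios of low genes. The fit had 2 residual and 2.81 prior degrees of freedom. Pairing comes from the cell line, and the deviations of the 2 libraries of a line correlated at 0.850, 0.863 and 0.710 in MOLM-14, NOMO-1 and SKM-1. Alternatives changed the tool (edgeR 4.0.16 or DESeq2 1.42.0 on recovered reads), the eBayes options (robust, or no trend), the block (none), the scaling (quantile, total count, or the deposited transformed values), the filter (none, or 50), the pseudocount (0.5 or 8), the fold limit (2-fold) and the lines or libraries used. A background of genes with a mean of 500 or more, and ratios recentred on it, were added after seeing the data. The steps were tested on simulated data.

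The genes, lists and tests were chosen with earlier results of these data known. Genes named in the text are NCAM1, all network and polymerase I members, NPM1, NCL, FBL, DKC1, ODC1, CAD and CDK4, the 4 highest and 4 lowest members of each line, up to 4 per direction with 1 direction in all lines, up to 4 per direction and line contrast by p, and 2 per direction of each further list by p. The other members named in the text (NOP58, NOP14, WDR12, PES1, BOP1, MRTO4, GNL3, LYAR) were added with their values seen. Exon lengths came from GENCODE annotation of GRCh38 and promoter windows from RefSeq (GRCh38.p14), while the counts were made on hg19, so no position of a count is given.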

Additional observations from a re-analysis of the deposited data

Results flagged for a closer look

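Some members were past 1.5-fold in opposite directions in NOMO-1 and SKM-1. The share of all tested genes that did the same was not computed. Of tested genes, 12.1% were past 1.5-fold higher and 16.8% past it lower in NOMO-1, and 25.3% and 27.4% in SKM-1. The log2 ratio of NCAM1 shRNA over scrambled shRNA in NOMO-1 minus that in SKM-1 was 2.05 for NOP56, 1.49 for RRS1, 1.43 for MRTO4 and -1.94 for MXD1. NOP56, RRS1 and MRTO4 were higher than control in NOMO-1 and lower in SKM-1, and the repressor MXD1 was lower in NOMO-1 and higher in SKM-1. The difference between lines was not tested, since each line has 1 library per condition.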

How the results depend on the processing

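The count of members called for NCAM1 knockdown over control was 0 under each alternative run, and without the replicate block it was also 0. The median over nucleolar factors of their mean log2 ratio was 0.06, with -0.13 to 0.27 when a line was left out. The mean over lines of MYC minus the nucleolar median of each line was -0.68, with -0.88 to -0.54. Members called in SKM-1 over MOLM-14 numbered 1, but 2 with quantile normalization, total-count scaling, eBayes without trend or the authors' transformed values, 6 by DESeq2, and 0 to 12 when a library was left out. In SKM-1 over NOMO-1 they numbered 3, but 1 with no filter, a filter of 50, eBayes without trend or edgeR, and 0 to 6 when a library was left out. In MOLM-14 over NOMO-1 they numbered 6, but 3 with no filter, a filter of 50 or eBayes without trend, and 0 to 14 when a library was left out. Members past 1.5-fold in NOMO-1 numbered 14, but 9 in the authors' transformed values and 1 at 2-fold, and in SKM-1 16, but 10 and 5. The MYC log2 ratio was -0.29 in MOLM-14, but -0.26 with total-count scaling, -0.25 with quantile normalization and -0.26 in the transformed values. It was -0.34 in NOMO-1, but -0.28 with total-count scaling and -0.27 with quantile normalization, and -1.36 in SKM-1, but -1.47 with quantile normalization and -1.22 in the transformed values. By construction, a stricter fold limit counts fewer genes, and a filter of 50 drops MYCN (mean 13.0), which was called lower in both contrasts with NOMO-1. The cause of the other shifts was not tested. The nucleolar median over lines turned sign without NOMO-1. The calls in SKM-1 over NOMO-1, 1 higher and 2 lower, were 1 higher and 0 lower with a filter of 50. Counting intervals were wide for the lowest members, as for PPAN in NOMO-1 (ratio interval 0.824 to 1.52), and they excluded a ratio of 1 for 21, 33 and 35 of the 38 members in MOLM-14, NOMO-1 and SKM-1. Beyond counting, the limit is 1 library per line and condition.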
